A study of Mus musculus with 4 samples.

Results

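The shelterin genes and Rif1 were followed in mouse embryonic stem cells (ESCs) that lacked the telomerase RNA and in wild-type ESCs. The members were chosen by name and were Terf1, Terf2, Tinf2, Pot1a, Pot1b, Acd and Terf2ip, which encode shelterin, together with Rif1. All 8 were found among the 24116 genes of the count table, and all 8 passed the filter on low counts, as did 14896 genes in all. RNA-seq libraries of poly(A) RNA were compared between G3 Terc-/- ESCs, which were derived from crosses of telomerase-deficient mice of the second generation, and WT ESCs, with 2 libraries of each. Both were of the C57BL/6 background and were grown on feeder cells in serum medium with leukemia inhibitory factor. The WT libraries, called WT here, were labelled as generation 3 (G3 WT) too. Since there was only 1 ESC line for each genotype, the loss of Terc and any other difference between the lines cannot be told apart. The replicates were described as biological, and how they were separated was not given in the sources used here.

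Shelterin is the protein complex that sits on telomere repeats and keeps chromosome ends from being read as DNA breaks. TRF1 (Terf1) and TRF2 (Terf2) bind the double-stranded repeats, TIN2 (Tinf2) bridges them, RAP1 (Terf2ip) is carried by TRF2, and TPP1 (Acd) joins TIN2 to the POT1 proteins on the single-stranded overhang and helps to recruit telomerase. Mice have a pair of POT1 genes, of which Pot1a restrains ATR signalling at telomeres and Pot1b limits the trimming of the 5′ strand. Rif1 is not a shelterin subunit in mammals. It works with 53BP1 to limit DNA end resection and with protein phosphatase 1 to time DNA replication, and it is strongly expressed in ESCs.

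Gene totals lay between 18047995 and 22520017 counts per library, the lowest in G3 Terc-/- replicate 2. For Terc, the deleted gene, 7 and 2 counts were found in WT. Neither G3 Terc-/- library had any (0 and 0, compatible with up to 3). With so few counts in poly(A) libraries, these values are a weak check of the knockout. Of all 14896 tested genes, 21.7% were higher and 21.8% lower in G3 Terc-/- ESCs at an adjusted p below 0.05 (edgeR), and the marker counts that follow are to be read beside these shares. Pluripotency markers were high in all libraries, with a summed level of 6705 and 6812 CPM (counts scaled to the TMM-adjusted library total) in WT and 7838 and 8175 CPM in G3 Terc-/- ESCs, and 8 of 12 were higher and 4 lower. Feeder fibroblast markers summed to 203 and 128 CPM in WT and 236 and 163 CPM in G3 Terc-/- libraries, so the groups overlapped, and 6 of 11 tested markers were higher. Of the 6 primitive endoderm markers 2 were lower, with sums of 19.5 and 17.5 against 14.9 and 10.4 CPM. Of 8 markers of 2-cell-like cells 6 were tested, and all 6 were higher. The 8 summed to 3.21 and 3.83 against 35.4 and 35.1 CPM, although several belong to families of near-identical copies whose reads may be shared. Zfp352 (0 and 2 counts in WT), Tcstv1 (4 and 5) and Tcstv3 (3 and 2) passed the filter only through the G3 Terc-/- libraries. Their direction was thus fixed by the filter and is no separate result. No marker on these lists was at 0 in every library. The part of these cell populations in the results below was not tested, and in bulk RNA fewer cells of a type and less RNA per cell cannot be told apart.

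Pot1a was lower in G3 Terc-/- ESCs and was the only member to change by more than 2-fold. Terf2ip and Acd were lower by less, Terf1 and Rif1 were higher, and Terf2, Pot1b and Tinf2 did not pass the test. In numbers, 2 of 8 members were higher and 3 of 8 were lower at an adjusted p below 0.05 (edgeR quasi-likelihood test, Benjamini-Hochberg adjustment over all tested genes). Among all tested genes 21.7% were higher and 21.8% were lower by the same rule, so counts of 2 and 3 among 8 genes are not in themselves a result about the members. With a fold change of 2 and an unadjusted p of 0.05, no member was higher and 1 was lower, against 4.73% and 3.13% of all tested genes. The median log2 fold change was 0.0553 over the members and 0.00625 over all tested genes.

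**Figure D1:**
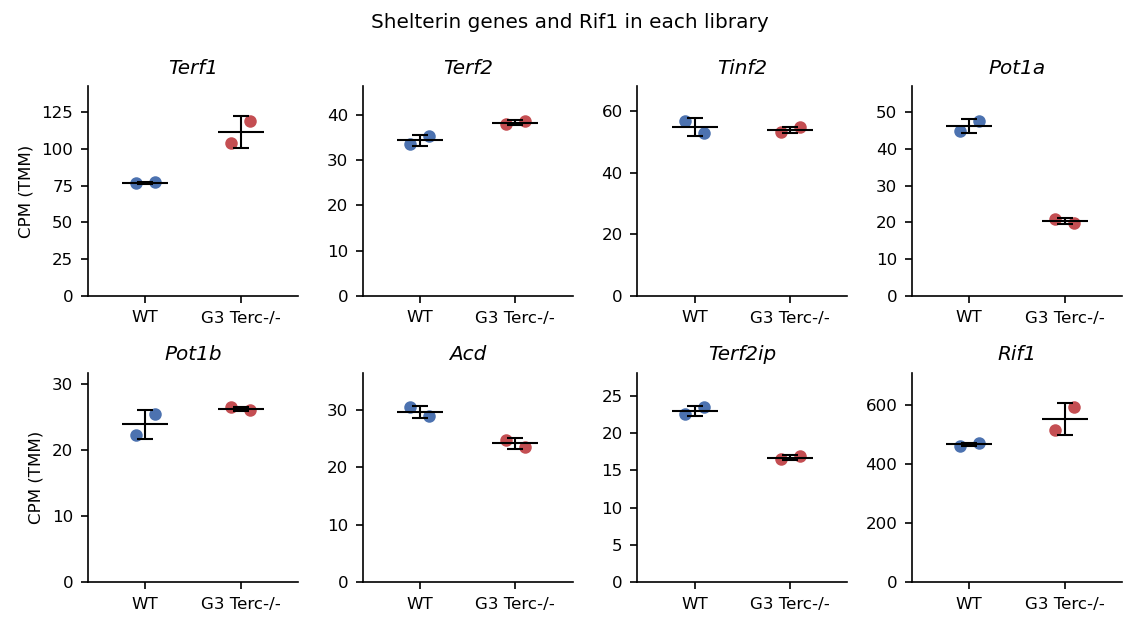
Each panel shows 1 member, with its level in CPM after TMM scaling on the vertical axis from 0 and a point for each library; black lines are the mean and SD of 2 libraries per genotype. Pot1a sits at 44.9 and 47.6 CPM in WT and at 20.9 and 19.8 CPM in G3 Terc-/- ESCs, while the Tinf2 groups overlap.

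The POT1 genes are taken first, with the sequences that bear on telling them apart. Pot1a (gene ID 101185) lies on the minus strand at chr6:25743940-25809277 and Pot1b (72836) on the minus strand at chr17:55651190-55712647, both in GRCm38, which is the same assembly as mm10. Their coding sequences were 1920 bases each and 78.8% identical over 1917 aligned positions. The longest stretch that both share is given in capitals below, with its flanks, from coding positions 424 to 554 of GENCODE transcripts; it shows how alike the paralogs are where they are closest.
Pot1a: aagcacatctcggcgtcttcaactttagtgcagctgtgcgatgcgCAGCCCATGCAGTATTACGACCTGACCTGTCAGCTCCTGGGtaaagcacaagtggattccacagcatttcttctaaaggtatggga
Pot1b: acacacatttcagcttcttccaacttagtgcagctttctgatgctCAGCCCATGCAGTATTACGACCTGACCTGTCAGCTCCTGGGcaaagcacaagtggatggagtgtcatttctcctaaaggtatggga
The shared run was 41 bases, and no stretch of 100 bases was found in the transcripts of both genes.

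Pot1a, which binds the single-stranded overhang, had 44.9 and 47.6 CPM in WT and 20.9 and 19.8 CPM in G3 Terc-/- ESCs. These values rested on 981 and 1055 against 464 and 361 counts. Both G3 Terc-/- libraries were far below both WT libraries. The level was 2.27-fold lower, a log2 fold change of -1.18 ± 0.079 (SE, n = 2 against 2), with a 95% interval from -1.34 to -1.02 and an adjusted p of 3.08e-16 in edgeR. A change at least as large in either direction was seen in 5.55% of all tested genes.

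Pot1b, its paralog, had 22.3 and 25.4 CPM in WT and 26.4 and 26 CPM in G3 Terc-/- ESCs. The G3 Terc-/- values were above the WT values, but the higher WT library came close to them. The log2 fold change was 0.14 ± 0.087 (SE) with a 95% interval from -0.04 to 0.31 and an adjusted p of 0.211 in edgeR, so a change was not detectable. The value was 0.0406 without WT replicate 1 and 0.234 without WT replicate 2, and neither passed the test.

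The balance of the POT1 genes moved as well. Per kilobase of exon, the ratio of Pot1a to Pot1b was 1.23 and 1.14 for WT and 0.482 and 0.462 for G3 Terc-/- ESCs. Pot1a was thus the more abundant of the pair in WT and the less abundant in G3 Terc-/- ESCs. The log2 ratio fell by 1.32, and the groups did not overlap; the exact two-sided permutation test gave p = 0.333, the smallest that 2 against 2 libraries allow. With the longest transcript as the length the ratios were 2.21 and 2.05 against 0.869 and 0.832, with the same change.

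The genes around Pot1a were examined to set its level beside that of its surroundings. No tested gene began within 1 Mb of Pot1a. Within 2.5 Mb there were 6, with a median log2 fold change of -0.429, and within 5 Mb there were 40, with a median of -0.218. The next tested gene at lower coordinates was Wasl, a regulator of actin assembly, 1.13 Mb away. It had 88.6 and 87.0 CPM in WT and 42.9 and 43.3 CPM in G3 Terc-/- ESCs, a log2 fold change of -1.03 ± 0.066 (SE) with an edgeR adjusted p of 7.18e-17. The next at higher coordinates was Grm8, a glutamate receptor gene, 1.53 Mb away, which had only 8 and 11 against 22 and 12 counts and an adjusted p of 0.101.

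The values on each side of Pot1a were set apart. This comparison was chosen after the values were seen and was not tested. Of the 10 nearest tested genes at lower coordinates, out to 3.97 Mb, 9 had a value below 0 and 6 were lower at an adjusted p below 0.05 in edgeR, with a median log2 fold change of -0.925. Among these was Fam3c, which fell from 86.6 and 84.7 to 27.8 and 29.3 CPM, and Ing3, a subunit of a histone acetyltransferase complex, which fell from 35.4 and 39.2 to 17.5 and 18 CPM. Cadps2, also among the 6, had 22 and 20 counts in WT against 6 and 5 in G3 Terc-/- ESCs. It passed the filter only through the WT libraries, so its direction is no separate result. Tspan12, another of the 6, had 17 and 34 against 14 and 9 counts (edgeR adjusted p = 0.0489). Of the 10 nearest at higher coordinates, out to 3.53 Mb, 5 were below 0, 3 were higher and 2 were lower, with a median of 0.0574. Over the wider range of 10 Mb, 9 of 10 genes at lower coordinates that averaged 50 counts or more were lower and none higher (median -0.967), against 18 lower and 8 higher of 43 at higher coordinates (median -0.129). All these counts are to be read beside the 21.7% higher and 21.8% lower among all tested genes. Fam3c and Ing3 were chosen after their values were seen. DNA copy number in this region was not analysed here.

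**Figure D2:**
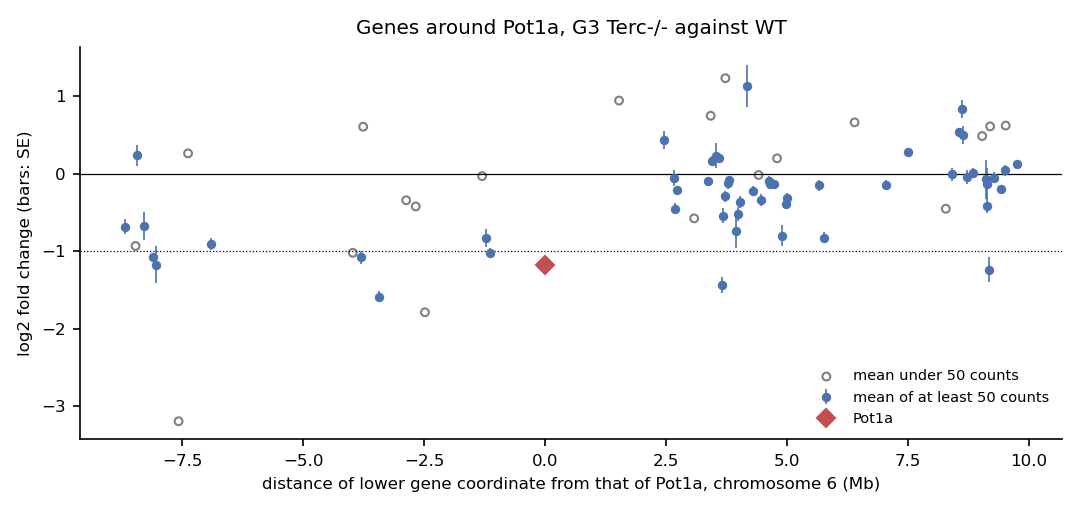
The log2 fold change between genotypes (vertical axis) of the tested genes of chromosome 6 within 10 Mb of Pot1a is plotted against distance in Mb (horizontal axis, lower coordinates to the left); filled points average 50 counts or more, with SE bars, and open points have fewer. Pot1a at -1.18 lies among lower genes on its left, where Wasl is at -1.03, while the 10 nearest genes on its right have a median of 0.0574.

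Terf1, which encodes the double-strand repeat binder TRF1, was the member with the largest rise. It lies at chr1:15805546-15844052 (gene ID 21749, plus strand) and had 76.6 and 77.3 CPM in WT and 104 and 119 CPM in G3 Terc-/- ESCs. The WT libraries were nearly equal and both lay below the G3 Terc-/- libraries, which were further apart. The level was 1.44-fold higher, a log2 fold change of 0.53 ± 0.063 (SE) with an edgeR adjusted p of 2.65e-09. The tested genes within 2.5 Mb of Terf1 had a median of 0.00661.

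Rif1 was by far the most abundant of the members. It lies at chr2:52072815-52126769 (gene ID 51869, plus strand), and its levels were 464 and 472 CPM in WT and 515 and 593 CPM in G3 Terc-/- ESCs. The groups did not overlap, but as with Terf1 the G3 Terc-/- libraries were apart, with replicate 2 at 1.15 times replicate 1 for both genes. Among 12177 tested genes averaging 50 counts or more, 8.66% had a ratio at least that high between the G3 Terc-/- libraries and 6.74% between the WT libraries. Rif1 was 1.18-fold higher, a log2 fold change of 0.24 ± 0.052 (SE) with an edgeR adjusted p of 0.000205. Without G3 Terc-/- replicate 2 the value was 0.139, still past the test (edgeR adjusted p = 0.00513). The 9 tested genes within 1 Mb of it had a median of 0.263, with 5 higher and none lower. The 16 within 2.5 Mb had a median of 0.184, with 6 higher and 3 lower. These counts stand beside 21.7% higher and 21.8% lower among all tested genes.

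Terf2ip, whose product RAP1 is carried by TRF2, was lower. It lies at chr8:112011359-112020528 (gene ID 57321, plus strand) and had 22.5 and 23.4 CPM in WT and 16.5 and 16.9 CPM in G3 Terc-/- ESCs. The pairs of libraries agreed closely within each genotype and were well separated. The level was 1.37-fold lower, a log2 fold change of -0.46 ± 0.094 (SE) with an edgeR adjusted p of 0.000102. The 48 tested genes within 2.5 Mb had a median of -0.0076.

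Acd, which encodes TPP1, was lower by a smaller amount. It lies at chr8:105698155-105701228 (gene ID 497652, minus strand) and had 30.4 and 28.9 CPM in WT and 24.8 and 23.5 CPM in G3 Terc-/- ESCs. The groups did not overlap. The level was 1.23-fold lower, a log2 fold change of -0.29 ± 0.083 (SE) with an edgeR adjusted p of 0.00376. The call was lost with DESeq2 (adjusted p = 0.0562) and without WT replicate 1 (edgeR adjusted p = 0.0695). Of its exon bases 33.3% also lie in exons of Carmil2 on the other strand, and since the strand setting of the counting was not stated, some reads could belong to either gene. Carmil2 had 18.9 and 19.3 against 18.7 and 18 CPM, with a log2 fold change of -0.06.

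Terf2, which encodes the end-protecting factor TRF2, lies at chr8:107069400-107096548 (gene ID 21750, minus strand). It had 33.5 and 35.2 CPM in WT and 37.9 and 38.6 CPM in G3 Terc-/- ESCs. The G3 Terc-/- libraries were both higher, by a small margin. The log2 fold change was 0.15 ± 0.075 (SE) with an unadjusted p of 0.0472 and an adjusted p of 0.0958 in edgeR, so it did not pass. Tinf2, which encodes the bridging subunit TIN2, lies at chr14:55676208-55682159 (gene ID 28113, minus strand) and had 56.7 and 52.8 against 53.1 and 54.6 CPM. The groups overlapped, and the log2 fold change of -0.03 had a 95% interval from -0.16 to 0.11 and an edgeR adjusted p of 0.791. Of the Tinf2 exon bases 31.2% are shared with Gmpr2 on the other strand, which had 30.8 and 31.1 against 34.1 and 32.7 CPM.

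**Figure D3:**
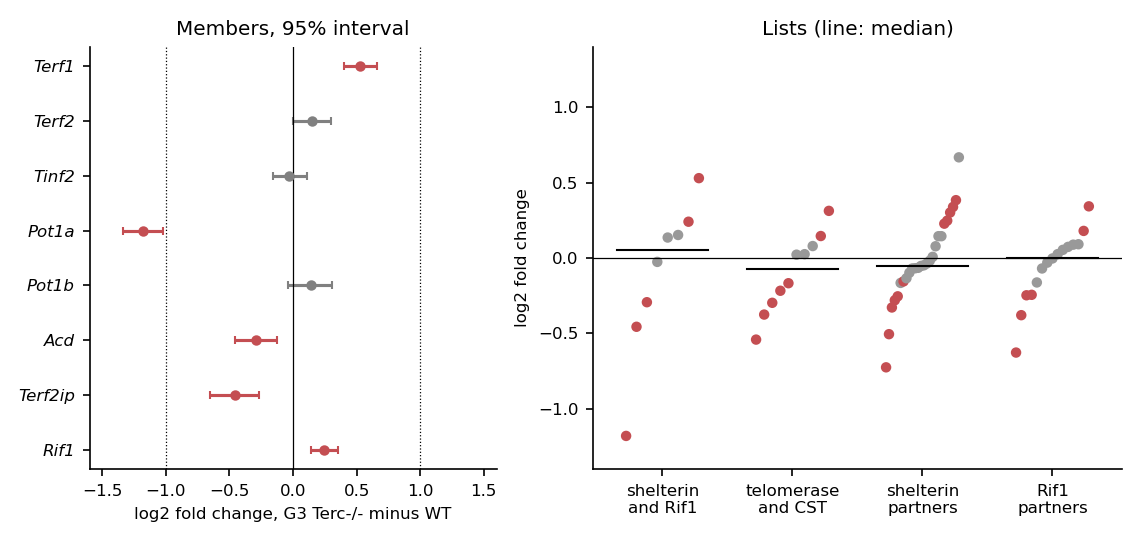
Left, the log2 fold change (G3 Terc-/- minus WT, horizontal axis) of each member with its 95% interval, with dotted lines at a fold change of 2; right, the log2 fold change (vertical axis) of each tested gene of 4 lists, with a line at each list's median. Red points have an adjusted p below 0.05; Pot1a at -1.18 is the only point on either side beyond a fold change of 2.

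The summed CPM of the shelterin genes hardly differed, while the shares of the genes per kb did. The sum and the shares are on different scales, and overlap of the groups on the CPM scale need not hold per kb. The 7 shelterin genes summed to 287 and 291 CPM in WT and 283 and 298 CPM in G3 Terc-/- libraries, and the groups overlapped. To compare genes with each other, levels were divided by the length of all exons of the gene. On that scale Rif1, Terf1 and Tinf2 were the highest in both genotypes, at 44.6 ± 0.532, 16.7 ± 0.0991 and 11.1 ± 0.562 CPM per kb in WT (SD, n = 2). They were followed in WT by Acd, Terf2, Pot1a, Terf2ip and Pot1b, of which only the libraries of Terf2ip (4.54 and 4.71 CPM per kb) and Pot1b (4.22 and 4.83 CPM per kb) overlapped. In G3 Terc-/- ESCs the order after Tinf2 was Terf2, Acd, Pot1b, Terf2ip and Pot1a, with no overlap between neighbours.

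As a share of the 7 shelterin genes per kb, Terf1 took 28.8% in each WT library, against 38.0% and 41.4% in G3 Terc-/- ESCs. Pot1a took 8.98% and 9.44% against 4.09% and 3.66%, a mean change of -5.34 percentage points. Acd went from a mean of 14.1% to 11.0% and Terf2ip from 7.98% to 5.56%. Tinf2, at 19.2% and 18%, changed by -1.19 points, close to the spread of its WT libraries. The scale matters for Pot1a, whose share changed by -8.73 points with the longest transcript as the length, because its exons of all transcripts add up to 8669 bases and its longest transcript to 3271. Shares are relative, so that a rise of Terf1 lowers the others.

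**Figure D4:**
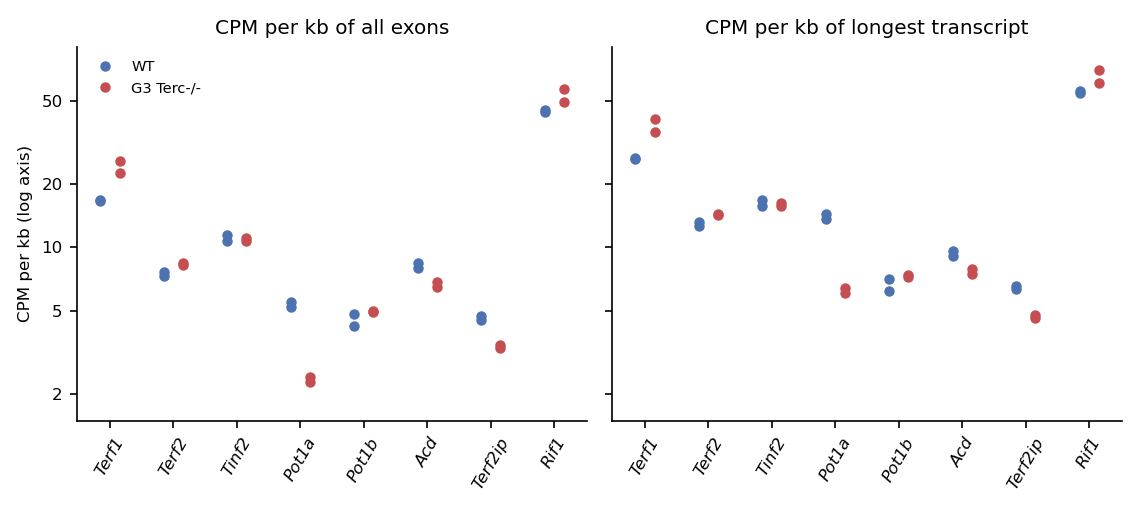
Points are single libraries of WT and G3 Terc-/- ESCs, as CPM per kb on a log axis, with the length of all exons on the left and of the longest transcript on the right. Rif1, Terf1 and Tinf2 are the highest in both panels, and Pot1a drops from the 6th to the 8th place on the left and from the 4th to the 7th on the right.

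Promoter windows of RefSeq (GRCm38.p6, 250 bases before to 50 after a start) are printed for the members whose levels were lower. That of Pot1b is printed as the paralog that was not lower. Of the 8 members 6 had an entry, and Terf1 and Rif1 did not. Capitals mark GGGCGG (the GC box) and CCAAT, on either strand, and they overlap each other nowhere except where adjoining CCAAT matches meet in Pot1b. They are shown to let the reader compare the sequence at the starts of genes that moved in the same direction.
Pot1a, chr6:25809169-25809468, minus strand: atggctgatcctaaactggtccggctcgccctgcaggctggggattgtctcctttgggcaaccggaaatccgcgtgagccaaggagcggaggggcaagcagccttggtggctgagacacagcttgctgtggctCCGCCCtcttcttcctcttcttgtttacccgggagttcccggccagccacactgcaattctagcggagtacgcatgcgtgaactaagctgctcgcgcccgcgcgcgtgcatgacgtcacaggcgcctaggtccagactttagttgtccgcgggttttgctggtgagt
Pot1b, chr17:55712575-55712874, minus strand: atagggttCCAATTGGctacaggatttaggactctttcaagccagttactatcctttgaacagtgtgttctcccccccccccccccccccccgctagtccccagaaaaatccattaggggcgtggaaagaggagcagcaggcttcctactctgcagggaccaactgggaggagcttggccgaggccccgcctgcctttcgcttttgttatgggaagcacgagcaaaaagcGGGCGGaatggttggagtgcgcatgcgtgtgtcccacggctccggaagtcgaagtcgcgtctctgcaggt
Acd, chr8:105701179-105701478, minus strand: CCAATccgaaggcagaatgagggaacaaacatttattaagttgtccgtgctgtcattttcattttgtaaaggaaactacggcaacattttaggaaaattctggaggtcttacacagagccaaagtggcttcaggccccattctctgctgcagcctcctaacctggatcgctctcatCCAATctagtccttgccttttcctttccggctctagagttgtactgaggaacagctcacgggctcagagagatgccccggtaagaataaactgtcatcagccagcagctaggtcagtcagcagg
Terf2ip, chr8:112011109-112011408, plus strand: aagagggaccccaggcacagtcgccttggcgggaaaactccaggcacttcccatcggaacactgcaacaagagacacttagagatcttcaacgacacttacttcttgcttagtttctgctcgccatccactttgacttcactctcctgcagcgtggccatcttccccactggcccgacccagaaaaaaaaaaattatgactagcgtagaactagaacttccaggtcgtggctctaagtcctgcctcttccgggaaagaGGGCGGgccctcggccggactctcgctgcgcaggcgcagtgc
The windows of Pot1a, Pot1b and Terf2ip held 22, 15 and 16 CG dinucleotides and that of Acd 7. Those of Terf2 and Tinf2, which did not pass the test and are not printed, held 18 and 24. The median was 7 over 32851 promoter windows. GGGCGG was found in 35.7% and CCAAT in 37.4% of all these windows. Pot1a and Terf2ip each held 1 GGGCGG and no CCAAT, Pot1b held both, and Acd held CCAAT only, so neither motif was found in all 3 lower genes. Of the other motifs searched on both strands, TATAAA (13.6% of all windows) and ATGCAAAT (1.74%) were in none of the 4 windows, and TTAGGG (10.6%) was in that of Pot1b.

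Genes that work with the members were taken from lists of known partners. Of 11 genes of telomerase and of the CST complex, which guides fill-in of the telomeric C strand, 10 were tested, 2 were higher and 5 lower, with a median log2 fold change of -0.0725, beside 21.7% and 21.8% of all tested genes. The counts were 0 higher and 2 lower without WT replicate 1, 1 and 3 without WT replicate 2, and 1 and 3 with DESeq2. Naf1, an assembly factor of telomerase RNP, had 97.6 and 98.0 against 61.8 and 73.0 CPM and changed by -0.54 ± 0.066 on the log2 scale (SE, edgeR adjusted p = 5.25e-09). Nhp2 changed by -0.30 and Nop10 by -0.22, both core proteins of H/ACA particles such as telomerase; the Nop10 call was lost without WT replicate 1 (edgeR adjusted p = 0.0814). Tert, the catalytic subunit, rose by 0.31 ± 0.091 (SE, adjusted p = 0.00468), from 18.6 and 19.2 to 24.2 and 22.7 CPM, and its call was lost without WT replicate 1 (edgeR adjusted p = 0.06) and with DESeq2 (adjusted p = 0.0909).

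Of 26 partners of shelterin, all tested, 5 were higher (3 without WT replicate 1) and 6 lower (4 without it), with a median of -0.0502. These counts stand beside 21.7% and 21.8% of all tested genes. Atrx, a chromatin remodeller that deposits histone H3.3 at telomeres, had 565 and 575 CPM in WT and 320 and 371 CPM in G3 Terc-/- ESCs, a log2 fold change of -0.72 ± 0.053 (SE, edgeR adjusted p = 4.5e-15). Rlim, a ubiquitin ligase that acts on TRF1, changed by -0.51, with 367 and 365 against 238 and 278 CPM. Both genes are on the X chromosome, whose tested genes had a median of -0.0177. On the Y chromosome, Ddx3y had 21.0 and 19.4 CPM in WT against 101 and 109 CPM in G3 Terc-/- ESCs. Kdm5d, also there, had 4.53 and 3.83 against 28.6 and 28.4 CPM. Whether this difference between the lines bears on Atrx and Rlim was not tested. Xrcc6, a subunit of the Ku heterodimer, changed by -0.33. Xrcc5, the other subunit, went the other way by 0.23 (edgeR adjusted p = 0.000559), from 203 and 208 to 227 and 255 CPM. Rtel1, a helicase that unwinds telomere loops, rose by 0.38, from 103 and 101 to 134 and 132 CPM.

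Of 16 partners of Rif1, 15 were tested, 2 were higher (1 when either WT library was left out) and 4 lower, with a median of -0.00275, beside 21.7% and 21.8% of all tested genes. Trp53bp1, which encodes 53BP1, the factor that brings Rif1 to breaks, had 122 and 120 against 75.9 and 81.1 CPM and changed by -0.63 ± 0.059 on the log2 scale (SE, edgeR adjusted p = 6.22e-12), the opposite direction to Rif1. Ehmt1, a histone methyltransferase, changed by -0.38 and Brca1, which promotes resection, by -0.24. Rbbp8, which encodes the resection factor CtIP, rose by 0.34, from 33.4 and 32.7 to 41.8 and 42.1 CPM. No gene of these lists passed a fold change of 2.

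**Figure D5:**
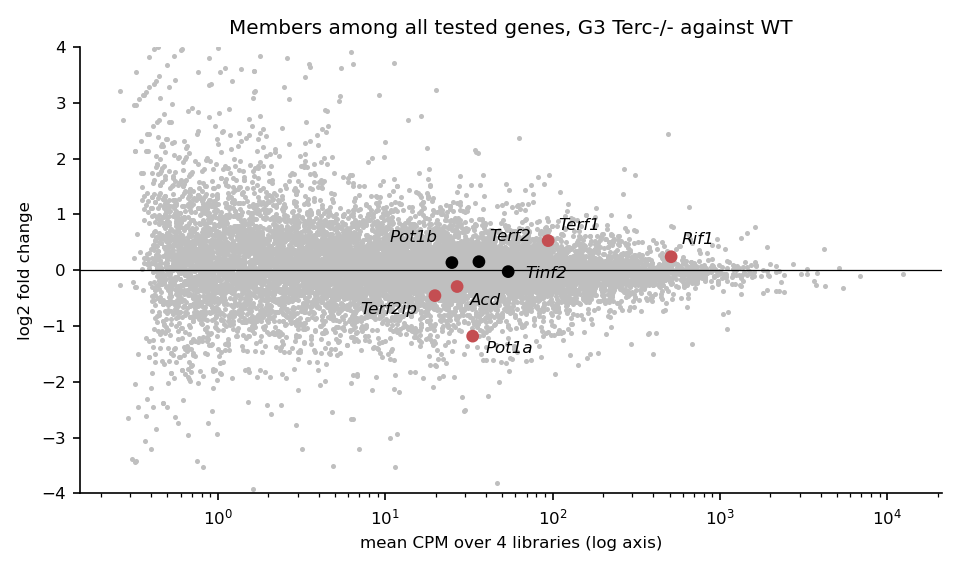
Each grey point is a tested gene, with its mean CPM over 4 libraries on a log axis and its log2 fold change on the vertical axis; 16 genes beyond 4 are not drawn. Members are labelled, red where the adjusted p is below 0.05. All lie within the cloud, with Pot1a at -1.18 in its lower part.

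For the members of largest change, the gene with the most similar pattern over the 4 libraries was looked up among 12169 genes, by the root mean square difference of mean-centred log2 CPM. It was Litaf for Pot1a (difference 0.0208), with 72.4 and 78.9 against 33.7 and 31.6 CPM. Tgfbr1 was nearest to Terf1 (0.0157) and Ube2e1 to Terf2ip (0.01). With 4 libraries many genes share such a pattern, and the likeness is a description only.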

How the data were processed

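RNA-seq of G3 Terc-/- and WT ESCs was analysed, with 2 libraries each. The authors deposited raw counts per gene (NCBI identifiers), made from paired-end reads aligned to mm10 with STAR; the submitters' processing notes also name Trim Galore and featureCounts, and their versions and strand setting were not given in the sources used here. A second table of transposable elements was not used here. Symbols and positions came from RefSeq GRCm38.p6 (24061 of 24116 matched), lengths from GENCODE for GRCm38.

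Fold changes were computed with edgeR 4.0.16 (filterByExpr, TMM, quasi-likelihood test, genotype only) in R 4.3.3, with Benjamini-Hochberg adjustment over 14896 genes. CPM are counts scaled to the TMM-adjusted library total; log2 CPM had a prior count of 2. SE were derived from the quasi-likelihood F, so they and the 95% intervals are approximate, with 2 residual degrees of freedom before pooling across genes. P-values measure the spread between these libraries. Replicates differed by more than counting noise (mean chi-square per gene 2.48 in WT and 3.77 in G3 Terc-/-). On counts simulated over 14896 genes, the edgeR test recovered 91% of 100 genes changed 1.5-fold and 97% of 100 changed 2-fold, and called 0.0551% of unchanged genes. Only 200 genes, each averaging 50 counts or more, were changed there, and the simulated spread followed the trend over all genes. In the data far more genes were called, 21.7% higher and 21.8% lower, so the simulated rates need not hold for them.

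The members and lists were chosen with earlier results of these data known. Named were all members, the 4 genes of smallest p of each list, the nearest tested gene on each side of Pot1a, the gene most like each of the 3 members of largest change, and Terc. Outside this rule, Carmil2 and Gmpr2 are named for their overlap with members, and Fam3c, Ing3, Ddx3y and Kdm5d after their values were seen. Xrcc5 is named as the other Ku subunit, and Zfp352, Tcstv1 and Tcstv3 for their few WT counts. Cadps2 and Tspan12 are named for their few counts. Alternatives were DESeq2 1.42.0, its size factors in edgeR, TMM without chromosome 6, no filter or at least 10 counts in every library, the replicate number as a block, other lengths and windows, and each library left out.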

Additional observations from a re-analysis of the deposited data

How the results depend on the processing

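Pot1a, Terf1, Terf2ip and Rif1 kept their direction and call under all 10 alternatives of test, scaling, filter, block and libraries, with log2 fold changes of -1.23 to -1.14 for Pot1a, 0.431 to 0.624 for Terf1, -0.486 to -0.43 for Terf2ip and 0.139 to 0.336 for Rif1 when a library was left out; Terf2 and Pot1b stayed uncalled in all 10, Pot1b between 0.0406 and 0.234. Acd was not called with DESeq2 (-0.302, adjusted p 0.0562) or without WT replicate 1 (-0.258), and ranged from -0.342 to -0.251 with a library left out, so that 2 members in place of 3 were lower. Tinf2 ranged from -0.0784 to 0.0242 and turned sign without WT replicate 1 (0.0242). With a library left out, the lone library was assumed to vary like the other group; telomerase and CST genes then gave 0 to 2 higher and 2 to 4 lower, shelterin partners 3 to 6 higher and Rif1 partners 1 to 3 higher. DESeq2 gave 1 higher and 3 lower for telomerase and CST. Of 16 named genes that are no members, whose alternatives were added after seeing the data, calls were lost only for Tert (0.288 without WT replicate 1, 0.304 with DESeq2) and Nop10 (-0.202 without WT replicate 1), and none changed sign. The Pot1a share changed by -8.73 points with the longest transcript. Near Pot1a, the median was -0.925 over the 10 nearest genes at lower and 0.0574 over those at higher coordinates, both added after seeing the data; a window of 1 Mb gave no value. DESeq2 called 1912 genes higher and 2241 lower, against 3238 and 3241 with edgeR. The causes were not tested, and little can be said of genes with few counts such as Terc and Grm8.

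Over all tested genes, the difference of replicate 1 and 2 was hardly correlated between genotypes (0.0617). Feeder fibroblast markers still summed higher in replicate 1 of both genotypes (203 against 128 CPM in WT, 236 against 163 CPM in G3 Terc-/-). Whether the replicate numbers pair the libraries was not tested. With the replicate block 2 members were higher and 3 lower, with Pot1a at -1.18. The block gave 3551 genes higher and 3583 lower, against 3238 and 3241 without it.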
